A study of Homo sapiens with 12 samples.

Results

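The genes described here encode chromatin remodellers and histone or DNA modifying proteins. They were taken by symbol from the Huh7 expression table. The symbols were those of the DNMT and TET families, the KMT2, KMT5, SETD and EZH methyltransferases, the KDM demethylases, the KAT acetyltransferases with EP300 and CREBBP, the HDAC deacetylases, and the SMARC, ARID, CHD and BRD families, without pseudogenes. The rule found 99 of the 60666 listed genes. It used no expression value, but it was set with earlier results of these data known. They were sorted by family and known function into 15 roles. The symbol rule also takes a few proteins whose best known substrates are not histones, among them SETD3, an actin methyltransferase, HDAC6, a tubulin deacetylase, and SMARCAL1, a replication fork remodeller.

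DNA in the nucleus is wound around histones, and cells set which genes are read partly through chemical marks on both. Writers such as acetyltransferases and lysine methyltransferases add marks, erasers such as deacetylases and demethylases remove them, bromodomain and ARID proteins bind marked histones or DNA, and SWI/SNF, ISWI and CHD ATPases move or evict nucleosomes. In hepatocellular carcinoma, genes of this machinery, ARID1A and KMT2D among them, are known to be mutated recurrently.

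Huh7 is an established human hepatocellular carcinoma line. Poly(A) RNA was sequenced from Huh7 cells that stably carried a control construct (3 libraries) or a short hairpin against FAM111B, called shFAM111B here (3 libraries). FAM111B encodes a nuclear serine protease, and the study asked how its loss changes these tumour cells. Both groups were made by lentiviral infection and puromycin selection, so both carry an integrated vector, and 1 hairpin represents the knockdown. The labels do not say whether the 3 libraries of a group came from separate cultures, so the p-values measure the spread between these libraries, which may be technical. Libraries of Hep3B, a second line, were not analysed here.

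The hairpin targets 19 bases of FAM111B, shown because every comparison rests on it.
shFAM111B target: CTGCCTAGTGATTCTCATT
All bases are in capitals since all of them matched. The site lies at chr11:59124545-59124563 (GRCh38, plus strand), in the coding part of the last exon of FAM111B. Among the GENCODE transcripts it matched 5, all of FAM111B. FAM111B had 7.84, 8.29 and 7.99 TPM in the control libraries and 0.96, 1.13 and 0.84 TPM in the shFAM111B libraries. The groups did not overlap, and the direction was that of the labels. Its log2 fold change was -2.20 (SE 0.113), with an adjusted p of 6.09e-06 from limma's moderated test, adjusted by Benjamini-Hochberg over all tested genes.

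TPM, a measure of transcript abundance, divides the reads of a gene by its length and scales each library to a fixed total, so levels can be compared between genes but are relative within a library. TPM do not tell the depth of a library, so counting error could not be computed. Pearson correlations of log2 values were 0.969 to 0.984 within groups and 0.865 to 0.883 between them. All 8 hepatocyte and hepatocellular carcinoma markers had at least 1 TPM in every library, summing to 22180 to 22360 TPM in control and 37710 to 42640 TPM in shFAM111B cells. The mean was higher in shFAM111B cells for 4 of them, AFP (7274 ± 200 against 23060 ± 1730 TPM), APOA1, TTR and GPC3. It was lower for the other 4, ALB (6444 ± 41.1 against 4161 ± 185 TPM, SD, n = 3 each), SERPINA1, APOB and HNF4A. Of the markers of other cell types, 1 of 5 for fibroblasts (sum 7.19 to 10.2 against 11.6 to 16.5 TPM), 1 of 4 for endothelium (1.26 to 2.29 against 2.15 to 3.49 TPM, with KDR at 0) and 2 of 5 for leukocytes (19.1 to 21.9 against 23.9 to 26.1 TPM) reached that level in every library. Genes of the mitochondrial chromosome took 196100 to 201500 TPM of each control library and 73240 to 78880 TPM of each shFAM111B library. Their share moved with the groups, and its part in the results that follow was not tested. In bulk RNA, fewer cells that express a gene and less RNA per cell cannot be told apart.

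Most of the chromatin genes had lower TPM in shFAM111B cells. Of the 99 genes, 94 reached 1 TPM in 3 or more libraries and were tested. The other 5 were TET1, KDM4D, KDM5D, SMARCA2 and CHD5, of which 1 was listed at 0 in every library. KAT6B, TET2 and KDM7A entered through the control libraries alone, so any change they showed had to be a fall. A gene was called when log2(TPM + 1) differed by at least 2-fold with an adjusted p under 0.05. By that rule 40 of the 94 were lower (42.6%), against 23.7% of all 14394 tested genes, and 1 was higher (1.06%), against 6.77% of all tested genes. At the adjusted p alone, 79 were lower (84%), against 50.9% of all tested genes. CHD3, SMARCA4 and SMARCB1 were the 3 that were higher (3.19%), against 21.1%, and 12 did not pass. The 3 control and 3 shFAM111B values did not overlap for 81 genes with lower values, against 52.8% of all tested genes, and for 5 with higher values, against 22.5%. For 8 chromatin genes the groups overlapped. KAT6B and KDM7A, which entered through the control libraries alone, are among the 40. With TET2 they are also among the 79 and the 81.

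The median log2 fold change was -0.85 over the tested chromatin genes and -0.36 over all tested genes, a difference of -0.49. Summed over all 99 genes, the level was 3048, 3042 and 3109 TPM in the control libraries and 1993, 1978 and 1958 TPM in the shFAM111B libraries. The size of these shifts depends on how the libraries are scaled. With median-of-ratios scaling the median of all tested genes moved from -0.36 to 0.03, and that of the chromatin genes was -0.44. On that scale 24 chromatin genes were lower (25.5%), against 12.4% of all tested genes, and 1 was higher, against 14%. Of all calls, 52.9% were then higher, against 22.2% in the deposited scaling. Upper-quartile scaling gave 24 lower chromatin genes (13.2% of all genes lower, 13.1% higher) and quantile normalization 24 (12.8% lower, 11.6% higher). Subtracting each library's median gave 19 (9.07% lower, 17.9% higher). CHD3 was the 1 gene called higher under each of these. All 24 genes lower with median-of-ratios scaling were among the 40, and 19 of them were lower under all 4 scalings.

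**Figure D1:**
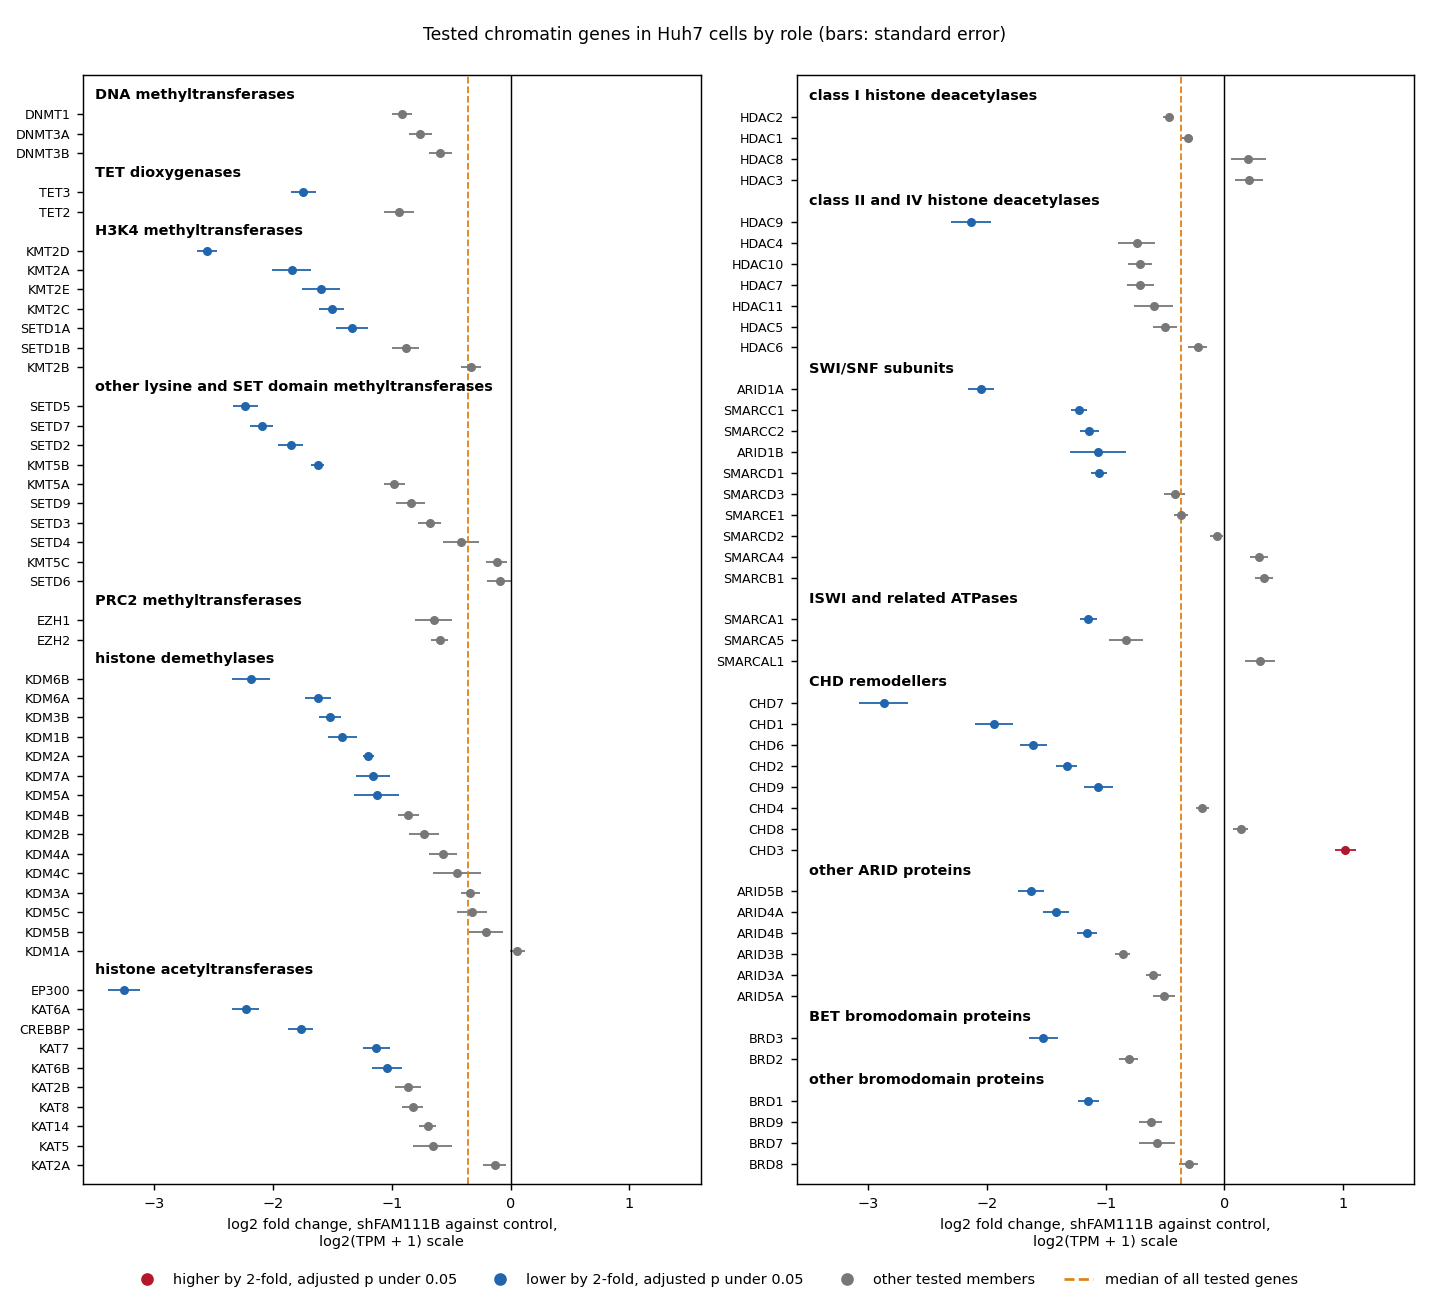
Log2 fold change (shFAM111B against control, log2(TPM + 1) scale) of 93 tested chromatin genes by role, with standard errors as bars, 2-fold calls in color and the median of all tested genes (-0.36) as a dashed line. EP300 (-3.26) lies farthest to the left, CHD3 (1.02) farthest to the right, with 39 genes colored as lower and 1 as higher.

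EP300 and KMT2D were among the 3 largest falls and CHD3 was the gene called higher, so the 250 bases before the RefSeq start of each are shown (GRCh38.p14, 5′ to 3′ on the strand of the gene). Capitals mark CG dinucleotides, the sites at which vertebrate DNA is methylated. EP300 lies at chr22:41091786-41180079 on the plus strand, and its promoter is chr22:41092342-41092591. KMT2D lies at chr12:49018975-49059774 on the minus strand, and its promoter is chr12:49060795-49061044. CHD3 lies at chr17:7884806-7912760 on the plus strand, and its promoter is chr17:7888539-7888788. The RefSeq starts of EP300 and CHD3 lie inside the GENCODE gene, and that of KMT2D lies upstream of its GENCODE start.
EP300 promoter: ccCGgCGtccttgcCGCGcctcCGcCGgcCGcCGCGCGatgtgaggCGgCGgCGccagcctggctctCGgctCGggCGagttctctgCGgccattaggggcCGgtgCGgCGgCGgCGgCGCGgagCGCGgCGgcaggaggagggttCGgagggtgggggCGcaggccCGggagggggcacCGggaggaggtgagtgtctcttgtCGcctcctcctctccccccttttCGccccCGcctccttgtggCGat
KMT2D promoter: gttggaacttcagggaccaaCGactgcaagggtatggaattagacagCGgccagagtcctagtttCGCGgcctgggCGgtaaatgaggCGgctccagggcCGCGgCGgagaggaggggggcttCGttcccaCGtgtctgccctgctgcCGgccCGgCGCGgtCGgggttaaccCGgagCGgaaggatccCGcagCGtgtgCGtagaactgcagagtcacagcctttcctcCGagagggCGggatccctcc
CHD3 promoter: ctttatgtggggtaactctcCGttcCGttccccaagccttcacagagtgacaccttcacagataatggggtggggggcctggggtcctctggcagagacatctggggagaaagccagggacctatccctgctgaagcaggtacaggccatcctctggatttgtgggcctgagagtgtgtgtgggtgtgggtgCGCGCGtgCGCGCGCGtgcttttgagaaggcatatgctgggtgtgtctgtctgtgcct
These stretches hold 35 CG dinucleotides for EP300, 23 for KMT2D and 9 for CHD3. RefSeq promoters (250 bases before to 50 after a start) matched 87 of the 99 genes, 146 promoters in all. Their median was 28 CG dinucleotides and 67% G and C, against 14 and 58.7% over all 35116 promoters. The YY1 motif AAGATGGCG was in 10 of the 146 (6.85%) and in 1.75% of all promoters. It was in promoters of BRD2, BRD8, CHD9, CREBBP, KAT5, KDM5C, KMT2B, KMT5B and SMARCD1. The TATA motif TATAAA was in 2.05%, against 11.53% of all promoters. The remaining motifs searched were CGCATGCG (NRF1, 2.05% against 2.02%), CCGGAAGT (ETS, 2.74% against 4.14%), CACGTG (E-box, 8.9% against 7.26%), TTTCGCGC (E2F, 0.68% against 0.52%) and CCAAT (27.4% against 34.61%). All were searched on both strands, none contains another, and a match describes the letters only.

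The 10 histone acetyltransferases held the largest single fall. EP300, the p300 coactivator that acetylates histones at enhancers, had 17.5, 17.4 and 22.1 TPM in control and 1.09, 1.27 and 0.88 TPM in shFAM111B cells. All 3 shFAM111B libraries were far below every control library. The log2 fold change was -3.26 (SE 0.135, adjusted p 3.39e-06, limma). CREBBP, its paralog, had 10.2, 9.36 and 10.4 TPM against 2.24, 2.44 and 2.02 TPM, a log2 fold change of -1.77 (SE 0.105, adjusted p 1e-05, limma). KAT6A, which acetylates histone H3 in the MOZ complex, had 13.1, 12.98 and 12.5 TPM against 2.1, 2.18 and 1.61 TPM. These groups too were apart, with a log2 fold change of -2.23 (SE 0.113, adjusted p 5.69e-06, limma). In all, 5 of the 10 were called lower and 9 passed the test as lower, against 23.7% and 50.9% of all tested genes. KAT6B, among the 5, entered through the control libraries alone. KAT2A (GCN5, the acetyltransferase of SAGA) had the highest mean level of the role and did not pass. Its values overlapped, at 26.8, 23.8 and 29.8 TPM against 25.6, 22.4 and 25.0 TPM, and its log2 fold change of -0.13 became 0.27 to 0.40 under the 4 scalings. The summed level of the role was 156 ± 8.89 TPM in control and 77.4 ± 1.96 TPM in shFAM111B cells (SD, n = 3 each).

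Class I deacetylases differed from this. HDAC1 and HDAC2, the catalytic pair of the NuRD, SIN3 and CoREST corepressors, were among the most abundant of all chromatin genes. HDAC2 had 200, 204 and 193 TPM in control and 150, 141 and 140 TPM in shFAM111B cells. HDAC1 had 136, 144 and 142 TPM against 113, 117 and 111 TPM. Neither pair of groups overlapped, and both passed the test as lower but by less than 2-fold. The log2 fold change of HDAC2 was -0.47 (SE 0.0479, adjusted p 0.000105, limma), and that of HDAC1 was -0.31 (SE 0.0463, adjusted p 0.000778, limma). The direction of HDAC1 turned with median-of-ratios, upper-quartile and library median scaling (0.11 to 0.23), and that of HDAC2 with library median scaling (0.06). HDAC3 and HDAC8, named here after their values were seen, had log2 fold changes of 0.21 and 0.20 and did not pass. The role's median of -0.05 was the only one of the 15 above the median of all tested genes.

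All 7 class II and IV deacetylases passed the test as lower, and 1 was called, against 50.9% and 23.7% of all tested genes. HDAC9, a class IIa corepressor of MEF2 factors, had 14.8, 11.8 and 12.96 TPM in control and 3.05, 2.01 and 1.75 TPM in shFAM111B cells. Its groups were well apart, with a log2 fold change of -2.13 (SE 0.169, adjusted p 3.17e-05, limma). HDAC4, of the same class, was low throughout, at 2.07 to 3.05 TPM against 0.97 to 1.06 TPM, and its log2 fold change was -0.74 (adjusted p 0.00393, limma). HDAC6 had the highest level of the role, at 77.5, 90.0 and 86.0 TPM against 69.7, 68.3 and 78.5 TPM. Its groups overlapped, its log2 fold change was -0.22 (adjusted p 0.0372, limma), and the sign turned with median-of-ratios, upper-quartile and library median scaling (0.19 to 0.31).

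The H3K4 methyltransferases mark promoters and enhancers. All 7 passed the test as lower and 5 were called, against 50.9% and 23.7% of all tested genes. The longest annotated transcripts of the 7 are all over 6000 nt. Of all tested genes, 45.7% were called lower from 6000 to 8000 nt and 44.7% over 8000 nt. KMT2D, which methylates H3K4 at enhancers, had 30.6, 28.6 and 26.9 TPM in control and 3.86, 4.22 and 4.01 TPM in shFAM111B cells. The lowest control library was far above the highest shFAM111B library. Its log2 fold change was -2.56 (SE 0.0842, adjusted p 2.49e-06, limma). KMT2A, the MLL1 enzyme, had 10.9, 10.6 and 7.54 TPM against 2.28, 1.66 and 1.92 TPM, with a log2 fold change of -1.85 (SE 0.164, adjusted p 5.46e-05, limma). KMT2B, a paralog of KMT2A, behaved differently. It had 28.1, 28.4 and 31.4 TPM against 25.2, 22.0 and 21.9 TPM, and its log2 fold change of -0.34 (SE 0.0819, adjusted p 0.00816, limma) became 0.06 to 0.20 under the 4 scalings. The role's summed level was 108 ± 0.841 TPM in control and 41.9 ± 3.32 TPM in shFAM111B cells (SD, n = 3 each).

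Among the 10 other lysine and SET domain methyltransferases, 8 passed the test as lower and 4 of them were called. The shares of all tested genes were 50.9% and 23.7%. SETD5, a SET domain protein of corepressor complexes, had 58.4, 59.9 and 62.4 TPM in control and 10.9, 14.3 and 11.1 TPM in shFAM111B cells. SETD7, which methylates H3K4 and several transcription factors, had 52.8, 51.0 and 47.5 TPM against 10.4, 12.7 and 10.1 TPM. Both genes were well expressed and clearly apart between the groups. Their log2 fold changes were -2.23 (SE 0.105, adjusted p 4.62e-06) for SETD5 and -2.10 (SE 0.0983, adjusted p 4.55e-06) for SETD7 by limma. KMT5B, an H4K20 methyltransferase, had 69.3, 70.0 and 69.0 TPM against 22.1, 22.7 and 20.8 TPM, with little spread within either group. KMT5B had a log2 fold change of -1.63 (SE 0.0556, adjusted p 2.55e-06, limma). KMT5C, which carries the same activity as KMT5B, was named after its values were seen. It did not pass, at -0.12 (adjusted p 0.275, limma), although its values did not overlap (11.81 to 12.5 against 9.96 to 11.77 TPM).

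EZH2 and EZH1 are the alternative catalytic subunits of PRC2, which writes the repressive H3K27 mark. EZH2 had 53.8, 54.4 and 53.3 TPM in control and 31.9, 36.5 and 37.5 TPM in shFAM111B cells. EZH1 had 5.87, 6.34 and 4.75 TPM against 2.90, 2.86 and 4.01 TPM. Each gene's groups were apart, and both passed the test as lower without reaching 2-fold. The log2 fold changes were -0.60 (SE 0.0713, adjusted p 0.000233) for EZH2 and -0.65 (SE 0.156, adjusted p 0.00757) for EZH1 by limma. EZH1 passed under none of the 4 scalings (adjusted p 0.103 to 0.528) and turned to 0.07 once a trend of fold change on transcript length and expression, fitted across all genes, was removed. EZH2 did not pass with median-of-ratios (adjusted p 0.0798) or library median scaling (0.442).

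Of 17 histone demethylases, 15 were tested. Of these, 11 passed the test as lower and 7 were called, against 50.9% and 23.7% of all tested genes. KDM7A, among the 7, entered through the control libraries alone. KDM6B, one of the enzymes that remove the H3K27 mark, had 32.5, 21.7 and 23.2 TPM in control and 4.93, 5.22 and 4.26 TPM in shFAM111B cells. The control libraries varied by more than the shFAM111B libraries but stayed far above them. This gave a log2 fold change of -2.19 (SE 0.16, adjusted p 2.26e-05, limma). KDM6A, the X-linked enzyme with the same activity, had 17.9, 16.0 and 15.9 TPM against 4.52, 5.45 and 4.21 TPM, a log2 fold change of -1.62 (SE 0.111, adjusted p 1.7e-05, limma). KDM2A, an H3K36 demethylase that binds CpG islands, had the highest level of all 99 genes in control cells, at 232, 233 and 248 TPM. It had 102, 106 and 101 TPM in shFAM111B cells. These values were apart, and its log2 fold change was -1.20 (SE 0.0464, adjusted p 2.99e-06, limma). KDM2A was under 2-fold with median-of-ratios (-0.75), upper-quartile (-0.79) and library median (-0.67) scaling and with the length and expression trend removed (-0.73), but not with quantile normalization (-1.29). KDM1A (LSD1, the CoREST demethylase), named after its values were seen, had overlapping groups at 41.7, 44.6 and 43.3 TPM against 42.8, 47.2 and 45.02 TPM, and did not pass (0.06, adjusted p 0.41, limma).

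DNMT1, the maintenance methyltransferase, had 59.8, 67.1 and 73.2 TPM in control and 36.3, 35.7 and 32.6 TPM in shFAM111B cells. The control libraries spread widely but did not reach the shFAM111B values, and the log2 fold change was -0.91 (SE 0.086, adjusted p 7.17e-05, limma). DNMT3A and DNMT3B set new methylation. DNMT3A had 20.7, 24.8 and 23.2 TPM against 12.2, 12.7 and 14.4 TPM (log2 fold change -0.76, adjusted p 0.000335, limma). DNMT3B had 15.0, 17.6 and 15.9 TPM against 11.2, 10.5 and 9.45 TPM (-0.59, adjusted p 0.00117, limma). None of the 3 reached 2-fold, and with the length and expression trend removed DNMT3A turned to 0.22 and DNMT3B to 0.17. DNMT3A did not pass with library median scaling (adjusted p 0.0779, limma), and DNMT3B passed under none of the 4 scalings (0.115 to 0.626). TET3, which oxidizes 5-methylcytosine, had 8.48, 7.65 and 8.08 TPM against 1.57, 1.89 and 1.66 TPM and was called lower at -1.75 (SE 0.108, adjusted p 1.15e-05, limma). TET2, one of the genes that entered through the control libraries alone, was near the detection limit set here, at 1.94, 2.14 and 1.94 TPM against 0.60, 0.56 and 0.53 TPM, and its log2 fold change was -0.94 (adjusted p 0.000417, limma).

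SWI/SNF subunits split in direction, and the core ATPase and the core subunit SMARCB1 were on the higher side. SMARCA4 (BRG1, the ATPase) had 93.8, 90.3 and 106 TPM in control and 122, 111 and 122 TPM in shFAM111B cells. SMARCB1 (SNF5) had 128, 117 and 133 TPM against 168, 165 and 145 TPM. For both genes every shFAM111B library exceeded every control library. Both passed the test below 2-fold, with log2 fold changes of 0.29 (SE 0.0748, adjusted p 0.0102) and 0.33 (SE 0.0761, adjusted p 0.00604) by limma. Under the 4 scalings the values were 0.32 to 0.82 for SMARCA4 and 0.26 to 0.87 for SMARCB1, lowest with quantile normalization. Parts of the SMARCB1 exons (17.69% of its exonic bases) lie under another annotated gene, all on the opposite strand (0% on the same strand). Whether the counting kept the strands apart is not known here.

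ARID1A, the subunit that defines the BAF form, had 19.2, 17.0 and 21.7 TPM in control and 3.83, 4.11 and 3.70 TPM in shFAM111B cells. All shFAM111B values lay close together and far below control, and the log2 fold change was -2.05 (SE 0.109, adjusted p 6.75e-06, limma). ARID1B, its mutually exclusive paralog, had 12.8, 12.2 and 10.2 TPM against 7.80, 4.47 and 3.65 TPM. Its shFAM111B libraries disagreed, and its log2 fold change of -1.06 (SE 0.235, adjusted p 0.00512, limma) dropped under 2-fold without shFAM111B replicate 2 (-0.99) or replicate 3 (-0.87) and with the 4 scalings (-0.70 to -0.53). SMARCC1, a scaffold subunit (BAF155), had 39.9, 39.1 and 39.1 TPM against 16.6, 17.2 and 15.2 TPM and a log2 fold change of -1.22 (SE 0.0659, adjusted p 7.05e-06, limma), which was -0.83 to -0.69 and so under 2-fold with the 4 scalings. In all, 5 of the 10 tested subunits were called lower, 7 passed the test as lower and 2 as higher. The shares of all tested genes were 23.7%, 50.9% and 21.1%. SMARCD2, SMARCD3 and SMARCE1, named after their values were seen, had log2 fold changes of -0.06, -0.42 and -0.36, and each turned positive under some of the scalings. SMARCA2, the alternative ATPase, was too low to test, at 1.53, 1.00 and 0.61 TPM against 0.23, 0.33 and 0.39 TPM.

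**Figure D2:**
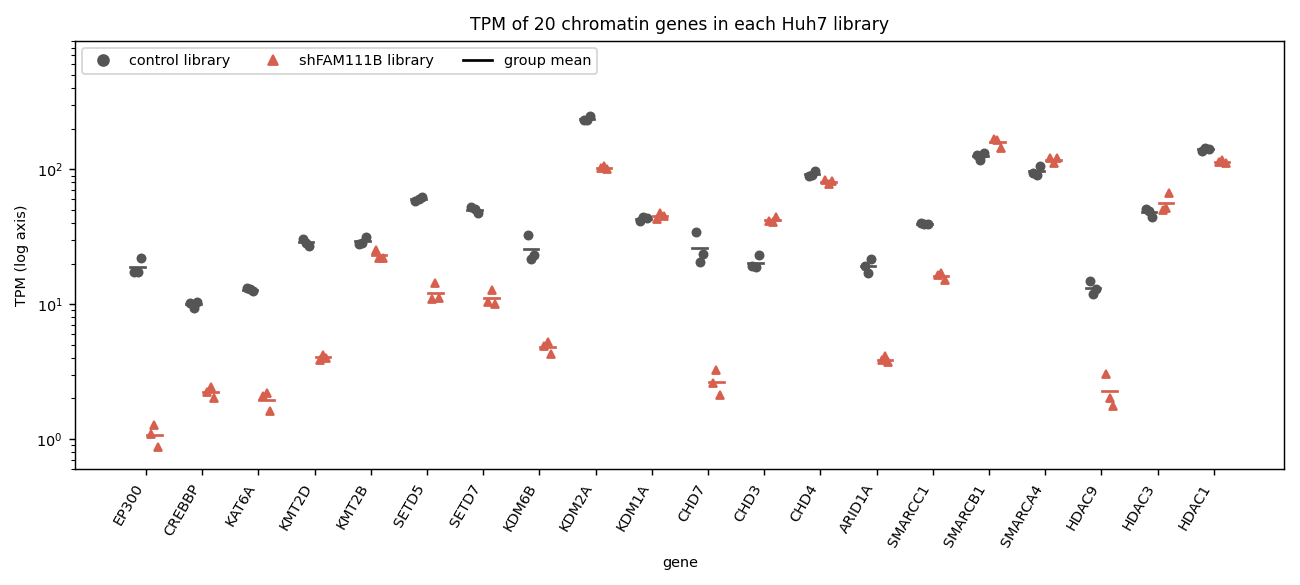
TPM (log axis) of 20 chromatin genes in each of the 3 control (circles) and 3 shFAM111B (triangles) libraries, with group means as lines. EP300 and CHD7 lie lowest relative to control, CHD3, SMARCB1 and SMARCA4 lie higher in every shFAM111B library, and KDM1A and HDAC3 overlap.

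The CHD family held both the second largest fall and the only gene called higher. CHD7, a remodeller of enhancers mutated in CHARGE syndrome, had 34.1, 20.6 and 23.6 TPM in control and 2.59, 3.26 and 2.11 TPM in shFAM111B cells. The control libraries differed among themselves, yet all were far above the shFAM111B libraries. The fold change was -2.87 on the log2 scale (SE 0.203, adjusted p 1.98e-05, limma). CHD1, which travels with elongating polymerase and reads H3K4 methylation, had 16.8, 23.3 and 24.2 TPM against 4.5, 5.58 and 4.32 TPM, a log2 fold change of -1.94 (SE 0.159, adjusted p 3.76e-05, limma). CHD3, an ATPase of NuRD, had 19.3, 18.7 and 23.1 TPM against 41.5, 40.5 and 44.5 TPM. Every shFAM111B library exceeded every control library, and the log2 fold change was 1.02 (SE 0.0909, adjusted p 5.54e-05, limma). CHD3 stood close to the 2-fold limit, and without control replicate 1, control replicate 2 or shFAM111B replicate 3 it fell short (0.98, 0.96 and 0.98). CHD4, the other main ATPase of NuRD, had 89.1, 90.7 and 97.4 TPM against 83.1, 77.8 and 81.9 TPM. Its log2 fold change was -0.19 (SE 0.0548, adjusted p 0.0174, limma), but 0.22 to 0.35 with median-of-ratios, upper-quartile and library median scaling. Other annotated genes cover 53.46% of the exonic bases of CHD4, and 46.91% on the same strand.

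Among the ISWI and related ATPases, SMARCA1 (SNF2L) was called lower and SMARCA5 (SNF2H) passed the test below 2-fold. SMARCA1 had 86.0, 81.2 and 77.0 TPM in control and 33.8, 37.97 and 36.99 TPM in shFAM111B cells, well apart, with a log2 fold change of -1.15 (SE 0.068, adjusted p 9.79e-06, limma). That value was -0.91 to -0.61 with the 4 scalings and -0.60 with the length and expression trend removed, under 2-fold in each. SMARCA5 had 34.0, 32.2 and 32.6 TPM against 18.3, 22.4 and 14.4 TPM, with shFAM111B libraries that spread more than the controls. SMARCA5 had a log2 fold change of -0.83 (SE 0.145, adjusted p 0.00161, limma), which turned to 0.07 with the trend removed.

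Bromodomain proteins bind acetylated histones. BRD3, a BET protein, had 14.3, 14.4 and 14.8 TPM in control and 4.04, 5.34 and 3.90 TPM in shFAM111B cells (log2 fold change -1.53, SE 0.12, adjusted p 3.04e-05, limma). BRD2, of the same family, had 44.6, 48.1 and 47.7 TPM against 26.2, 29 and 24 TPM (-0.81, SE 0.0807, adjusted p 9.53e-05, limma). Both genes were lower in every shFAM111B library, BRD3 past 2-fold and BRD2 short of it. Against 50.9% of all tested genes, the 4 bromodomain proteins outside the BET family all passed the test as lower. Of these BRD1, a scaffold of the HBO1 acetyltransferase complex, was called lower (19.1 ± 1.58 against 8.10 ± 0.401 TPM, SD, n = 3 each, log2 fold change -1.15, but -0.76 to -0.61 with the 4 scalings). BRD9, of the ncBAF form of SWI/SNF, and BRD8, of the TIP60 complex, were lower by less, at -0.62 and -0.30, and BRD8 turned to 0.07 to 0.23 under the 4 scalings. Of 6 further ARID proteins, all passed the test as lower and 3 were called, against 50.9% and 23.7% of all tested genes. Those called were led by ARID5B (6.43 ± 0.37 against 1.40 ± 0.116 TPM, log2 fold change -1.63) and ARID4A (7.89 ± 0.199 against 2.33 ± 0.281 TPM, -1.42). ARID3A, the most abundant of the 6, had 91.9 ± 3.44 against 60.4 ± 4.34 TPM (-0.60).

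The order of levels changed as well. In control cells KDM2A led (238 ± 8.71 TPM), followed by HDAC2 (199 ± 5.88), HDAC1 (141 ± 4.18), SMARCB1 (126 ± 8.35) and SMARCA4 (96.6 ± 8.15; SD, n = 3 each). In shFAM111B cells SMARCB1 led (159 ± 12.5 TPM), followed by HDAC2 (143 ± 5.42), SMARCA4 (118 ± 6.71), HDAC1 (114 ± 3.18) and KDM2A (103 ± 2.41). SMARCB1 and HDAC2 were close in that order (145 to 168 against 140 to 150 TPM), as were SMARCA4 and HDAC1 (111 to 122 against 111 to 117 TPM). EP300 went from rank 53 to 90 of the 99 and CHD3 from rank 48 to 12.

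Ratios between genes of 1 library are the same whatever factor the library is multiplied by, though quantile normalization would change them, and 14 were compared from the deposited TPM. The 7 paralog pairs were set with the rule for named genes, and the other 7 were chosen after values were seen. With 3 against 3 libraries the smallest p of an exact two-sided permutation test is 0.1. In 12 of the 14 the groups were apart, which gives p = 0.1 each (exact test, 0.117 adjusted over the 14). Of all tested genes, taken singly, 75.2% had groups apart, and ratios of other gene pairs were not computed. A ratio also keeps any difference in fold change that goes with transcript length. EP300 had 1.72, 1.86 and 2.12 times the TPM of CREBBP in control and 0.487, 0.52 and 0.436 times in shFAM111B cells. The order of the paralogs was thus reversed in every library. CHD4 was 4.56 ± 0.313 times CHD3 in control and 1.92 ± 0.08 times in shFAM111B cells, and SMARCC1 was 0.313 ± 0.02 and 0.103 ± 0.00339 times SMARCB1 (SD, n = 3 each). ARID1A went from 1.67 ± 0.39 to 0.807 ± 0.277 times ARID1B. KMT2D went from 1.73 ± 0.0529 to 0.86 ± 0.0892 times KDM6A, its partner in the KMT2D complex. KDM6B went from 1.55 ± 0.242 to 1.02 ± 0.0665 times KDM6A, and HDAC2 from 1.41 ± 0.06 to 1.26 ± 0.0656 times HDAC1. SMARCA4 was 108 ± 58 and 393 ± 120 times SMARCA2, a ratio to a gene near or under 1 TPM.

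Ratios of summed roles were lower too. Acetyltransferases had 0.27 ± 0.0171 times the summed TPM of all deacetylases in control and 0.17 ± 0.00173 times in shFAM111B cells. Most of the deacetylase sum in control was class I (404 ± 9.53 TPM, against 176 ± 8.29 TPM for class II and IV). Within class I, most was HDAC2 (199 ± 5.88 TPM) and HDAC1 (141 ± 4.18 TPM). H3K4 methyltransferases had 1.22 ± 0.0416 and 0.637 ± 0.0762 times the summed TPM of the KDM5 demethylases, which remove the same mark. Most of the KDM5 sum was KDM5C (72.8 ± 5.21 against 58.3 ± 10.4 TPM), so the denominator mainly reflects that gene. The numerator, the summed H3K4 methyltransferases, went from 108 ± 0.841 to 41.9 ± 3.32 TPM. KDM5A was itself called lower (log2 fold change -1.13), but was under 2-fold with the 4 scalings (-0.77 to -0.60). With the length and expression trend removed KDM5A was at -0.105. KDM5D was at 0 TPM. These KDM5 genes were named after their values were seen. TET enzymes had 0.105 ± 0.0132 and 0.045 ± 0.00184 times the summed TPM of the DNA methyltransferases. Class II and IV deacetylases went from 0.435 ± 0.0272 to 0.369 ± 0.0159 times class I (SD, n = 3 each). The 2 ratios whose groups overlapped were EZH2 to EZH1 (9.65 ± 1.37 against 11 ± 1.73, p = 0.3, exact test) and DNMT3A to DNMT3B (1.42 ± 0.0361 against 1.28 ± 0.227, p = 0.4, exact test).

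**Figure D3:**
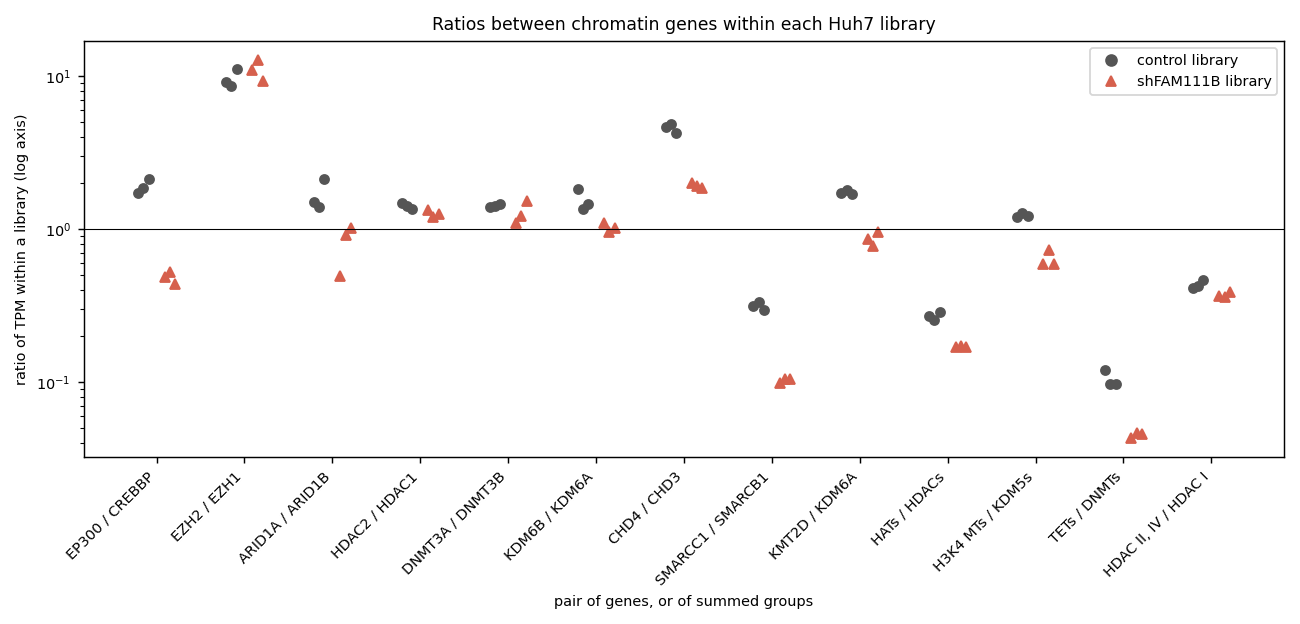
Ratio of TPM within each control (circles) and shFAM111B (triangles) library for 13 pairs of chromatin genes or summed roles, on a log axis with a line at 1. EP300 to CREBBP crosses the line from 1.9 to 0.481, and only EZH2 to EZH1 and DNMT3A to DNMT3B overlap between the groups.

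Chromatin genes make long transcripts, and fold change ran with transcript length in these libraries. The median longest annotated transcript was 5944 nt for the tested chromatin genes and 3212 nt for all tested genes with a length. Across the 94 chromatin genes the Spearman correlation of length and log2 fold change was -0.51, and across all tested genes it was -0.46. The points share the same 6 libraries, and genes are not independent replicates. Across the chromatin genes the correlation of mean TPM with log2 fold change was 0.38.

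Compared within length classes, the share of chromatin genes called lower exceeded that of all tested genes in the 2 longest classes and not in the 3 shorter ones. Up to 2000 nt, 0 of 2 chromatin genes were called lower, against 8.32% of all tested genes, and from 2000 to 4000 nt 2 of 19 (10.5%), against 18.7%. From 4000 to 6000 nt the counts were 8 of 27 (29.6%), against 34.7%. From 6000 to 8000 nt 10 of 16 were called lower (62.5%), against 45.7%, and over 8000 nt 20 of 30 (66.7%), against 44.7%. The median log2 fold changes of the chromatin genes from the shortest class to the longest were -0.32, -0.60, -0.65, -1.21 and -1.15, against 0.27, -0.32, -0.74, -0.93 and -0.94 for all tested genes. From 4000 to 6000 nt the chromatin genes thus had the higher median. CHD3, with a transcript of 7356 nt, was 1 of 20 genes called higher in its class of 1270.

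**Figure D4:**
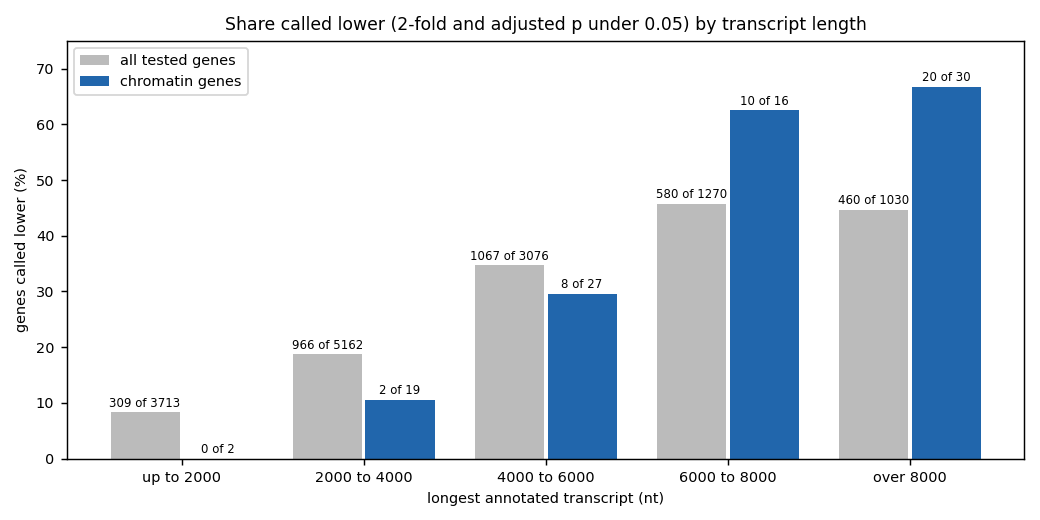
Percent of genes called lower (2-fold and adjusted p under 0.05) in 5 classes of longest annotated transcript, for all tested genes (grey) and for the tested chromatin genes (blue), with the counts above the bars. Chromatin genes are below all genes up to 6000 nt and above them in the longer classes (62.5% against 45.7%, and 66.7% against 44.7%).

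After a loess trend of log2 fold change on length and mean expression, fitted across genes, was removed, 9 chromatin genes were called lower (9.57%), against 9.14% of all 14251 genes with a length, and 3 higher (3.19%), against 9.49%. On that scale the share of lower chromatin genes was thus near that of all genes. The median log2 fold change of the chromatin genes was then -0.17. The 9 were EP300 (-2.27), CHD7 (-1.83), KMT2D (-1.67), SETD5 (-1.39), KAT6A (-1.24), SETD7 (-1.21), KDM6B (-1.21), HDAC9 (-1.13) and ARID1A (-1.02). All 9 were also lower as deposited and under all 4 scalings. The 3 higher were CHD3 (1.86), HDAC8 (1.06) and CHD8 (1.02), the last pair named after their values were seen. For CHD8 the TPM as deposited were 27.0, 26.1 and 26.8 in control and 31.3, 28.1 and 28.8 in shFAM111B cells, apart but not past the test (log2 fold change 0.14, adjusted p 0.0903, limma).

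**Figure D5:**
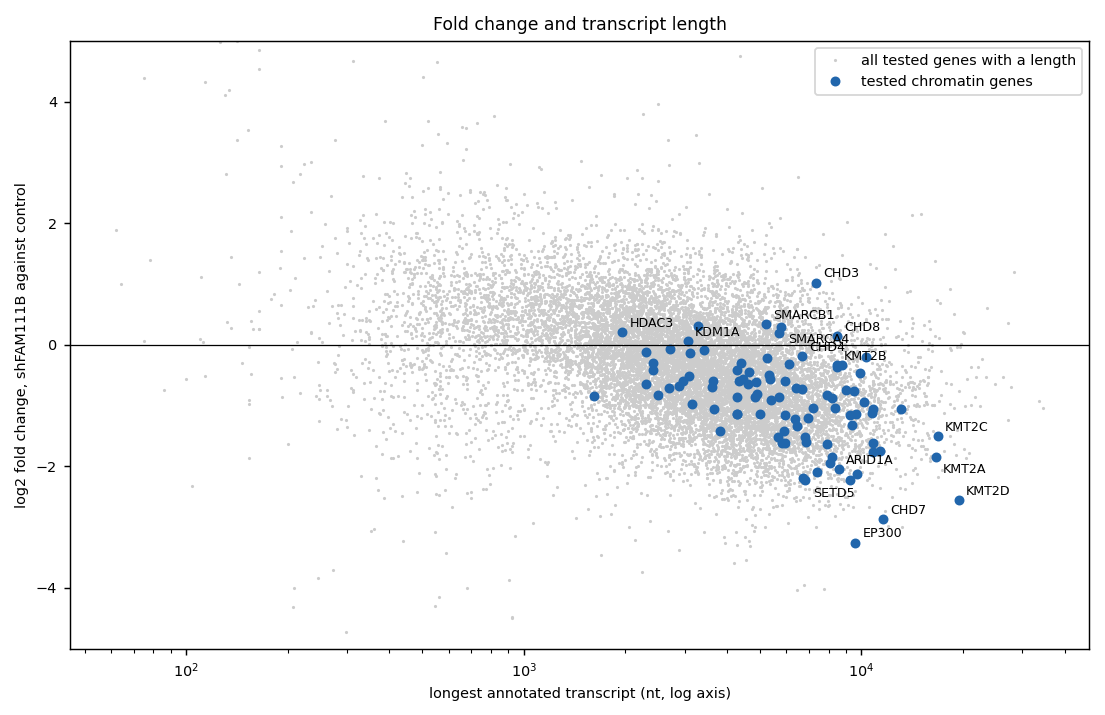
Log2 fold change against the longest annotated transcript (nt, log axis) for all tested genes with a length (grey) and the 94 tested chromatin genes (blue). Chromatin genes lie mostly at the long end, EP300, CHD7 and KMT2D below the cloud, and CHD3 above most genes of its length (7356 nt).

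Other proteins of the same complexes, 147 genes that the symbol rule does not take, were listed by complex, and 144 were tested. Of these 55 were called lower and 6 higher, 102 and 16 at the adjusted p alone, and the median log2 fold change was -0.73. Of all tested genes 23.7% were called lower and 6.77% higher, 50.9% and 21.1% at the adjusted p alone. Partner genes were counted in the deposited scaling only, and their calls under the other scalings were not counted. Nor were they counted within length classes or with the length and expression trend removed, so these shares keep any effect of transcript length. BICRAL, CBX7, SRCAP and BAZ2B entered through the control libraries alone, so they could only fall, and 3 of these 4 (all but CBX7) are among the 55. INO80, SRCAP and other remodellers had 9 of 16 called lower (median -1.20), among them SRCAP, the ATPase that deposits H2A.Z (8.97 ± 0.623 against 0.51 ± 0.219 TPM, log2 fold change -2.73). With the length and expression trend removed, only SRCAP (-1.87), BAZ2B (-1.30), BAZ1A (-1.17) and SMARCAD1 (-1.12) of these stayed past 2-fold. The last 3 were named after their values were seen. Polycomb partners had 9 of 23 called lower and 2 higher, with BMI1, a PRC1 subunit, lowest (12.4 ± 0.486 against 0.63 ± 0.513 TPM, -3.08). Its shFAM111B libraries had 0.15, 0.57 and 1.17 TPM, near or under the limit of 1 TPM. PHF1, an accessory subunit of PRC2, was highest (22.6 ± 0.255 against 55.4 ± 4.91 TPM, 1.25). Acetyltransferase partners had 12 of 28 called lower, with ING3 of the TIP60 complex at -1.83, and 1 higher, ING2 at 1.05. ING2 was counted in this list as it was written, although it is better known as a SIN3 subunit. Further SWI/SNF subunits had 5 of 12 called lower, led by PBRM1 of the PBAF form (-1.70). COMPASS partners had 3 of 12, led by PAXIP1 (-1.62), a share near the 23.7% of all tested genes.

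NuRD, SIN3 and CoREST partners had 7 of 20 called lower, with SIN3B at -1.36 (but -0.975 to -0.82 with the 4 scalings), and 2 higher, with SAP30 at 1.11. Other methylation enzymes and readers had 9 of 26 called lower, led by ASH1L, an H3K36 methyltransferase (-1.86), and 1 higher. That 1 was EHMT2 (G9a, an H3K9 methyltransferase), at 20.1 ± 1.18 TPM in control and 42.8 ± 5.68 TPM in shFAM111B cells (log2 fold change 1.04). Sirtuins, the other family of deacetylases, had 1 of 7 called lower, a share below the 23.7% of all tested genes. That gene was SIRT1 (10.2 ± 0.915 against 3.86 ± 2.06 TPM, -1.27, but -0.92 to -0.74 with the 4 scalings). The median of the sirtuins was 0.07. Like that of the class I deacetylases, it lay above the median of all tested genes. Values given with ± are means and SD of 3 libraries.

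Some of these levels may hold reads of other loci. Exons of other annotated genes, on either strand, cover 55.81% of the exonic bases of HDAC10, 48.53% of KDM4A, 42.43% of BRD7, 38.56% of KAT5, 18.9% of KMT2A and 18.63% of BRD3. On the same strand they cover 55.81% of HDAC10, 40.16% of KDM4A and 17.89% of KMT2A, and 0% of BRD7, KAT5 and BRD3. Overlaps were not computed for the partner genes. Annotated pseudogenes of the same symbol number 7 each for BRD7 and SMARCE1, 3 for HDAC1, 2 for BRD9 and 1 each for DNMT3A and EZH2. How the counting split such reads is not given in the sources used here.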

How the data were processed

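RNA was sequenced from 3 control and 3 shFAM111B Huh7 libraries, grouped by their labels, out of 12 samples in the series. The authors deposited TPM per library and group mean TPM for Huh7, together with their own comparison of the groups (ratio, log2 ratio, p-values before and after adjustment), none of which was used. The submitters' processing notes name RSEM, DESeq2 and hg38 without versions or roles. TPM hold no depth, so no count test was made.

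The filter was 1 TPM or more in 3 or more libraries. After a pseudocount of 1, limma 3.58.1 (R 4.3.3) compared the log2 values (lmFit, then eBayes with trend, no covariate). Benjamini-Hochberg adjustment ran over all 14394 genes, and calls needed a 2-fold change and an adjusted p under 0.05. Fold changes on the log2(TPM + 1) scale understate those of low genes. On simulated data 187 of 200 changed genes and 5 unchanged genes of 14394 were called. That simulation had independent noise, no length trend and no shift of the median gene. It therefore checks the code and does not measure false calls in these libraries. Transcript lengths and positions came from GENCODE release 29, which holds 58420 of the 60666 identifiers and all 99 chromatin genes.

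The chromatin genes, roles, partner lists, markers, promoter motifs and tests were chosen with earlier results of these data known. Genes named are, in each role, the 2 with the largest absolute log2 fold change and the 1 with the highest mean TPM, every gene called higher, 7 paralog pairs, and in each partner list the largest called rise and fall. Others are marked where they appear. The result of 1 tested gene is not reported here, and that gene stays in the counts. Same-numbered libraries did not deviate together (correlations 0.035 to 0.091), so the numbers were not taken as pairs. Alternatives were median-of-ratios, upper-quartile, quantile and library median scaling, a pseudocount of 0.1, no filter, at least 1 TPM in every library, a replicate block, leaving out each library, no fold limit, unadjusted P, and removal of a loess trend (span 0.75) on length and expression. Python 3.11.15 with pandas 2.3.3, numpy 2.4.6 and matplotlib 3.10.9 made the tables and figures.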

Additional observations from a re-analysis of the deposited data

How the results depend on the processing

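Over all genes, calls higher and lower were 2016 and 1792 with median-of-ratios, 1884 and 1905 with upper-quartile, 1673 and 1846 with quantile and 2574 and 1305 with library median scaling. They were 3044 and 7326 with no fold limit. With at least 1 TPM in every library 634 were higher, and with the length and expression trend removed 1302 were lower. Chromatin genes called lower were 24, 24, 24 and 19 under the 4 scalings, 9 with the trend removed and 79 with no fold limit, and those called higher 3 under each of the last pair. Their median was -0.44, -0.48, -0.47 and -0.32 under the scalings, -0.92 with a pseudocount of 0.1 and -0.17 with the trend removed. It differed from that of all genes by -0.78 with no filter, which adds genes near 0, and by -0.16 with the trend removed. Roles with more genes called lower than higher numbered 12, and 6 with the trend removed. Leaving out each library in turn gave 0 to 1 chromatin genes called higher. Signs turned, in the order of the scalings and then with the trend removed, for KMT2B (0.10, 0.064, 0.10, 0.20 and 0.56), KAT2A (0.31, 0.27, 0.31, 0.40 and 0.35) and BRD8 (0.14, 0.10, 0.069, 0.23 and 0.33). Without the quantile value they turned for HDAC6 (0.23, 0.19, 0.31 and 0.34), CHD4 (0.26, 0.22, 0.35 and 0.41) and, not with the trend removed, HDAC1 (0.15, 0.11 and 0.23). HDAC2 turned with library median scaling (0.064). With the trend removed, DNMT3A (0.22), EZH1 (0.067), SMARCA5 (0.069), ARID3A (0.008), BRD9 (0.21) and DNMT3B (0.17) turned. The cause was not tested. Of the 45 named genes, 15 kept their sign but lost the call with the trend removed, 8 with library median scaling and 6 under each other scaling (SMARCC1, SMARCA1, BRD1 and ARID1B among them under all 4, and KDM2A under all but quantile), and 2 gained it with a pseudocount of 0.1. The replicate block gave 983 higher and 3402 lower genes and 1 and 40 chromatin genes, and the median stayed at -0.85. KDM5A lost its call without control replicate 2 (-0.985) or shFAM111B replicate 2 (-0.997), and KMT5A gained one without control replicate 1 (-1.01) or shFAM111B replicate 2 (-1.03). Depth is unknown, so levels near 1 TPM carry an error that was not measured.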
